A study of Rattus norvegicus with 325 samples.

Results

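The nicotinic acetylcholine receptor of skeletal muscle was described through the genes of its 5 subunits, Chrna1 (alpha), Chrnb1 (beta), Chrnd (delta), Chrne (epsilon) and Chrng (gamma), in RNA-seq libraries of rat muscle, 83 of the diaphragm, 85 of the tibialis anterior, 84 of the soleus and 73 of the gastrocnemius. The members were the gene lines with these symbols in the deposited count files, 5 of 17315 distinct symbols, and each symbol stood on 1 line. The libraries came from untreated males of the outbred Sprague Dawley stock. They covered the diaphragm and 3 hindlimb muscles (tibialis anterior, soleus and gastrocnemius), at 7 ages from 6 months through 9, 12, 18 and 21 months to 24 and 27 months. No group carried a gene modification or a drug, and the rats of 6 months served as the reference. The study asked how gene expression in limb muscles and in the diaphragm moves with age.

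This receptor is the ion channel that opens when a motor nerve releases acetylcholine, and it sits at high density under the nerve ending of the neuromuscular junction. Each receptor holds a pair of alpha subunits with a beta, a delta and either a gamma or an epsilon subunit. Fetal muscle makes the gamma form along the whole fibre, and adult muscle makes the epsilon form at the nuclei below the nerve ending. In muscle that has lost its nerve supply or its electrical activity, the alpha, beta, delta and gamma genes are known to be transcribed again outside the junction.

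The groups of 1 muscle and 1 age held 9 to 13 libraries from separate animals, with 12 libraries at 6 months and 12 at 27 months in each muscle except the gastrocnemius, which had 10 and 11. The tissues of an age were collected on a single day, so age and collection day cannot be told apart. The running numbers that the labels give the libraries fall into 3 series, and the labels do not say what these mark. The gastrocnemius had a series of its own, and in the other muscles all libraries of 12 months and 1 library each of 21 months carried numbers of another series (the third series). The steps into and out of 12 months in those muscles, and each comparison with the gastrocnemius, cannot be told apart from a change of series. Libraries held 17555294 to 85316329 counts with a median of 31879679. The spread between libraries is the spread between animals, and counting error adds to it where a gene has few counts. The fibre type markers went with the muscle labels, since the median level of the slow myosin Myh7 at 6 months was 47514 CPM (counts per 1000000 counts of the library) in the soleus and 2062 CPM in the tibialis anterior, and that of the fast myosin Myh4 was 8.39 and 87432 CPM. Levels of the subunits are given below as CPM after scaling of the libraries to a common composition, and they are compared within a gene only because they were not divided by transcript length. A gene was called where its change passed a Benjamini-Hochberg adjusted p of 0.05 over all genes tested and 1.5-fold in limma-voom.

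The promoters of the 5 genes are shown because 3 of the subunits moved together across muscles and ages, as described below, and because E-boxes, the sites of the myogenic factors, and N-boxes, the sites tied to synaptic expression, are known elements of these promoters. The sequences are the 250 bases before the annotated start, from RefSeq on build GRCr8, a later build than the one used for the counts. Capitals mark matches on either strand to the E-box letters CANNTG and the N-box letters CCGGAA, with no overlap between them. The windows lie at chr3:78877354-78877603 on the minus strand for Chrna1, chr10:55015108-55015357 on the minus strand for Chrnb1, chr9:95310066-95310315 on the plus strand for Chrnd, chr10:55834155-55834404 on the minus strand for Chrne, and chr9:95325734-95325983 on the plus strand for Chrng.
Chrna1: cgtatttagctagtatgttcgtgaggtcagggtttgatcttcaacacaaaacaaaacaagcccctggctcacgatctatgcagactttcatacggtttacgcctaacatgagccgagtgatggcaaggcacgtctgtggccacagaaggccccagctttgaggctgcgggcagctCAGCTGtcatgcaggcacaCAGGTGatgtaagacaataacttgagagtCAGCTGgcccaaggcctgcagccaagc
Chrnb1: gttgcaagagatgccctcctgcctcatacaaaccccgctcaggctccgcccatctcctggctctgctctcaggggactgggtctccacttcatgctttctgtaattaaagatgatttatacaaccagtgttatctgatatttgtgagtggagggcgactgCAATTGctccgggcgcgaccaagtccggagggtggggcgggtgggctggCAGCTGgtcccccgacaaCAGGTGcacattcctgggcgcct
Chrnd: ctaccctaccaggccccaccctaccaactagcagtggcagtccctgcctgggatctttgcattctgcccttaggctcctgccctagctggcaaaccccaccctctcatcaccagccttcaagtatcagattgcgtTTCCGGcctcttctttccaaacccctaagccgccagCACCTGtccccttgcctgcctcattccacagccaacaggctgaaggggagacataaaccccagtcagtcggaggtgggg
Chrne: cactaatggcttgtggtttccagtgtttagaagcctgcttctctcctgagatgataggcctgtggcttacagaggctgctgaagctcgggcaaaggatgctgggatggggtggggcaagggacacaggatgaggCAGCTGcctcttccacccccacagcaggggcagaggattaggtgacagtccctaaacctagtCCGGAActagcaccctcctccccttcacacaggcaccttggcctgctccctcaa
Chrng: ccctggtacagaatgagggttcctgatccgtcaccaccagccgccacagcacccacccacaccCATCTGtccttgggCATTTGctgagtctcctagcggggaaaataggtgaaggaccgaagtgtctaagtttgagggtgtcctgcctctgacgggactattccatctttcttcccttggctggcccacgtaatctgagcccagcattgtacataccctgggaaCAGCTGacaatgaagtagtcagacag
The Chrna1, Chrnb1 and Chrng windows each held 3 E-boxes, and the Chrnd and Chrne windows held 1 each. An E-box was found in 65.5% of the 33469 RefSeq promoter windows of this length, and 3 or more in 11.5% of them. An N-box was found in 1 copy in the Chrnd and Chrne windows, and in 12.6% of all windows. These matches are letters in the reference and not tested sites. In the RefSeq table Chrnd and Chrng are next to each other on chromosome 9.

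Most of the receptor genes were called higher in old muscle, and the size of the change differed between muscles. At 27 months 3 of the 5 members, Chrna1, Chrnd and Chrng, were called higher in the diaphragm, where 3.27% of the 12035 genes tested were called higher. All 5 were called higher in the limb muscles, against 15.1% of 11865 genes in the gastrocnemius, 9.21% of 12175 in the soleus and 17.2% of 11754 in the tibialis anterior. No member was called lower at any age in any muscle. The groups did not overlap between 6 and 27 months for 5 members in each of the fast muscles, 4 in the soleus and 3 in the diaphragm. Over all genes tested, every library of 27 months lay above every library of 6 months for 1.27% of genes in the diaphragm, 2.23% in the soleus, 6.53% in the gastrocnemius and 8.91% in the tibialis anterior. The median log2 change of the members was 1.29 in the diaphragm, 1.57 in the soleus, 3.34 in the gastrocnemius and 4.83 in the tibialis anterior, beside medians over all genes between 0.00 and 0.04.

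**Figure D1:**
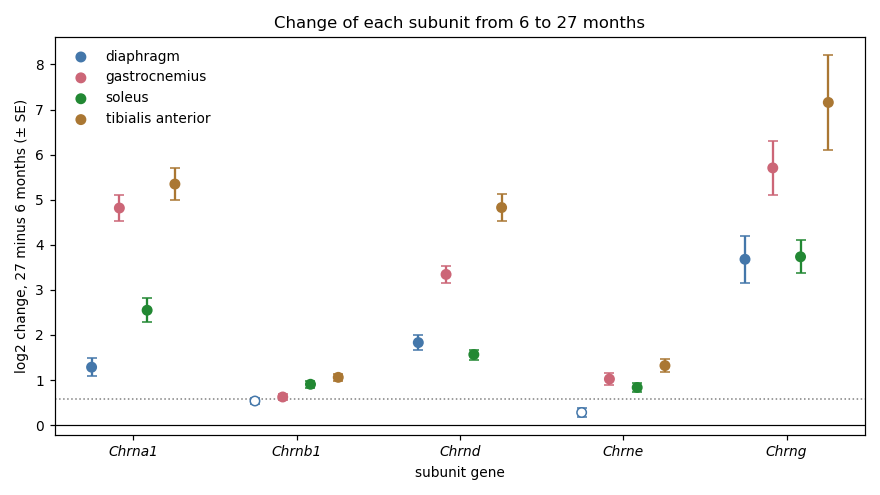
Change from 6 to 27 months of each subunit gene (log2 scale, y axis; error bars are 1 SE of the limma-voom fit), with 1 colour for each muscle, filled circles for called changes, open circles for the others and a dotted line at 1.5-fold. The open circles are Chrnb1 and Chrne in the diaphragm, and the tallest values are those of Chrng.

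The alpha subunit, which carries the larger share of each acetylcholine binding site, rose with age in all 4 muscles, to the greatest extent in the tibialis anterior and gastrocnemius. In the tibialis anterior the 12 libraries of 6 months ran from 9.96 to 17.3 CPM with a median of 13.7 CPM, and the 12 libraries of 27 months from 135 to 1018 CPM with a median of 614 CPM. In the gastrocnemius the lowest, median and highest levels were 7.14, 8.86 and 18.9 CPM at 6 months and 85.8, 312 and 519 CPM at 27 months. All libraries of 27 months lay above all of 6 months in both muscles. The log2 change was 5.35 (SE 0.35, adjusted p = 2.6e-23), or 40.7-fold, in the tibialis anterior and 4.82 (SE 0.29, adjusted p = 8.6e-23), or 28.2-fold, in the gastrocnemius.

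The soleus started from a higher Chrna1 level, with 49.0, 57.0 and 78.0 CPM as the lowest, median and highest of 6 months, and reached 62.9, 383 and 643 CPM at 27 months. A single library of 27 months fell within the range of 6 months and the other 11 lay above it. The log2 change was 2.55 (SE 0.27, adjusted p = 1.97e-13). The diaphragm moved least, from 14.6, 20.3 and 32.8 CPM to 22.0, 48.6 and 189 CPM, with a log2 change of 1.29 (SE 0.20, adjusted p = 2.44e-07). Here 8 of 12 libraries of 27 months exceeded the highest of 6 months. These are bulk samples, in which a change in the number of cells of a type and in RNA per cell cannot be told apart.

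**Figure D2:**
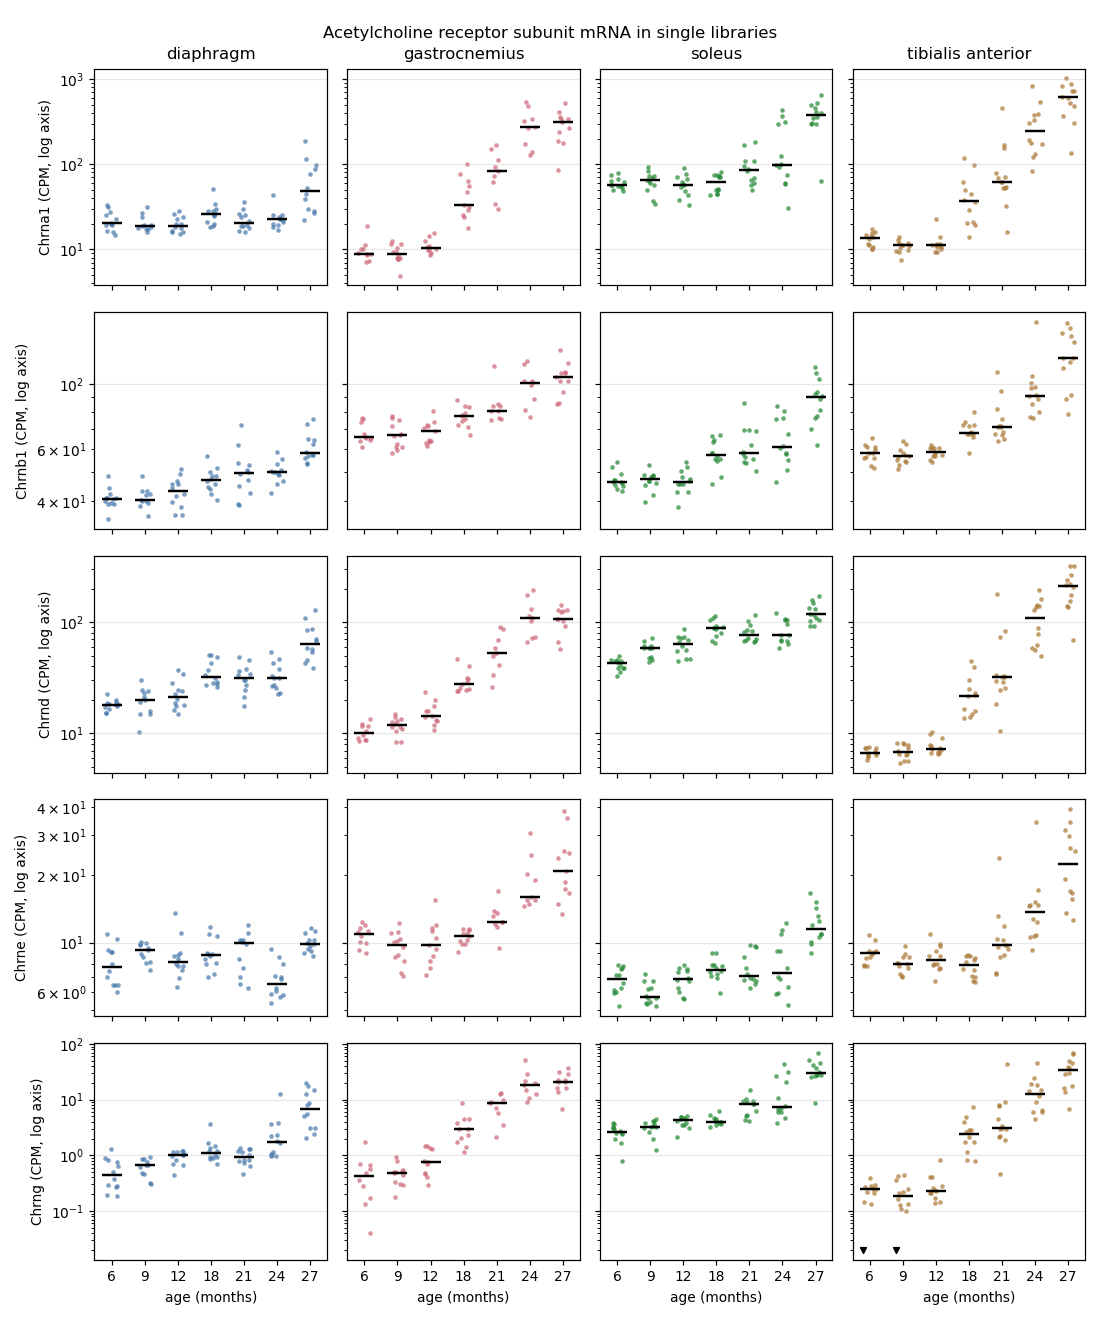
Level of each subunit gene in single libraries (points, CPM on a log axis) by age in months, in the 4 muscles, with the group median as a bar, black triangles at the bottom for the 2 libraries without a count, and a scale shared along each row. Chrna1, Chrnd and Chrng climb steeply from 18 months in the gastrocnemius and tibialis anterior, while Chrnb1 and Chrne move over a narrow range.

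The beta subunit gene Chrnb1, whose product takes part in anchoring the receptor to the scaffold protein rapsyn, moved over a narrow range of levels. Its median went from 58.2 CPM (51.8 to 65.3 CPM) at 6 months to 122 CPM (79.0 to 161 CPM) at 27 months in the tibialis anterior, and from 46.3 CPM (43.3 to 54.1 CPM) to 89.8 CPM (61.7 to 114 CPM) in the soleus. In the gastrocnemius the median was 65.6 CPM (60.9 to 76.6 CPM) at 6 months and 105 CPM (85.6 to 131 CPM) at 27 months. In the diaphragm it was 40.6 CPM (34.6 to 48.4 CPM) and 58.0 CPM (53.3 to 75.9 CPM). The 2 ages did not overlap in any of the 4 muscles.

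The change of Chrnb1 was called in the limb muscles, with log2 changes of 1.06 (SE 0.08, adjusted p = 2.77e-20) in the tibialis anterior, 0.91 (SE 0.08, adjusted p = 2.75e-17) in the soleus and 0.62 (SE 0.07, adjusted p = 4.88e-13) in the gastrocnemius. In the diaphragm the log2 change of 0.54 (SE 0.06, adjusted p = 7.54e-11) passed the test but came to 1.45-fold and was not called. With a 2-fold limit the soleus and gastrocnemius calls were lost as well.

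The delta subunit gene Chrnd rose in all 4 muscles, and its libraries of 27 months lay above all libraries of 6 months in each of them. Its median climbed from 6.66 CPM (5.76 to 7.62 CPM) to 213 CPM (69.5 to 323 CPM) in the tibialis anterior, a log2 change of 4.83 (SE 0.29, adjusted p = 6.04e-25). In the gastrocnemius it climbed from 10.1 CPM (8.56 to 13.5 CPM) to 107 CPM (57.3 to 144 CPM), a log2 change of 3.34 (SE 0.18, adjusted p = 1.06e-24). The diaphragm went from 18.2 CPM (15.2 to 22.8 CPM) to 63.2 CPM (39.0 to 127 CPM), with a log2 change of 1.83 (SE 0.17, adjusted p = 4.21e-15). The soleus, which had the highest young level of the 4 muscles, went from 42.7 CPM (32.8 to 50.0 CPM) to 117 CPM (92.5 to 171 CPM), with a log2 change of 1.57 (SE 0.11, adjusted p = 5.43e-21). The muscle with the lowest Chrnd level at 6 months had the largest change, and the changes of the soleus and diaphragm did not differ beyond their error (log2 difference -0.32, SE 0.25, adjusted p = 0.316).

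In the soleus most libraries exceeded the young range of Chrnd at the next ages, and it was the single subunit there with an adjusted p under 0.05 at 9 and 12 months. At 9 months 8 of 12 soleus libraries already exceeded the highest of 6 months, with a log2 change of 0.45 (SE 0.11, adjusted p = 0.0364), and at 12 months 9 of 12 did, with 0.58 (SE 0.11, adjusted p = 0.00101). Both changes passed the test and neither reached 1.5-fold. The libraries of 12 months were of the third series, so that change cannot be told apart from a change of series. At 12 months edgeR, DESeq2 and the fit with sample quality weights put the change just past 1.5-fold, at 0.59, 0.59 and 0.61. From 18 months on every soleus library lay above the young range, which held for 0.476% of all genes at 18 months, 0.238% at 21 months and 0.575% at 24 months.

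The epsilon subunit gene Chrne, which replaces gamma in the adult receptor, rose in the 3 limb muscles but not beyond the limit in the diaphragm. In the tibialis anterior its median was 8.95 CPM (7.86 to 10.8 CPM) at 6 months and 22.3 CPM (12.6 to 39.1 CPM) at 27 months, a log2 change of 1.32 (SE 0.15, adjusted p = 4.76e-13). The gastrocnemius had 11 CPM (8.95 to 12.4 CPM) and 20.8 CPM (13.4 to 38.4 CPM), a log2 change of 1.02 (SE 0.13, adjusted p = 3.21e-10). The soleus had 6.89 CPM (5.21 to 7.94 CPM) and 11.5 CPM (8.96 to 16.5 CPM), a log2 change of 0.84 (SE 0.09, adjusted p = 2.4e-12). In these 3 muscles the 2 ages did not overlap.

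In the diaphragm the Chrne median was 7.76 CPM (6.03 to 10.9 CPM) at 6 months, 6.57 CPM (5.36 to 9.39 CPM) at 24 months and 9.87 CPM (8.68 to 11.6 CPM) at 27 months. Only 3 of 12 libraries of 27 months exceeded the highest of 6 months, and the log2 change of 0.28 (SE 0.09, adjusted p = 0.00997) was 1.21-fold. With the Bonferroni adjustment this change did not pass the test.

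The gamma subunit gene Chrng, the fetal member, was near the limit of detection in young fast muscle and rose in all 4 muscles. The 12 tibialis anterior libraries of 6 months held 0 to 15 counts, with a median of 0.251 CPM, and those of 27 months held 168 to 2695 counts, with levels of 6.77, 34.2 and 69.7 CPM as the lowest, median and highest. In the gastrocnemius the levels were 0.0406, 0.421 and 1.77 CPM at 6 months and 6.89, 21.0 and 37.1 CPM at 27 months. Every library of 27 months was above every library of 6 months in these muscles, as it was in the diaphragm and soleus.

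The young soleus had more Chrng than the other muscles, at 0.788, 2.63 and 3.82 CPM, and reached 8.65, 30.6 and 69.7 CPM at 27 months. The diaphragm went from 0.189, 0.440 and 1.30 CPM to 2.08, 6.69 and 20.3 CPM. The log2 change of Chrng was 7.16 (SE 1.05, adjusted p = 4.93e-09) in the tibialis anterior, 5.71 (SE 0.60, adjusted p = 5.29e-13) in the gastrocnemius, 3.73 (SE 0.36, adjusted p = 1.28e-14) in the soleus and 3.68 (SE 0.52, adjusted p = 1.63e-08) in the diaphragm. The young counts were few, so the fitted sizes have wide errors in the fast muscles.

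The balance of the fetal to the adult member was read as the ratio of Chrng to Chrne counts within each library, which does not depend on the scaling of libraries. Since transcript lengths were not used, the ratio is a relative measure and a value of 1 does not mean equal numbers of transcripts. At 6 months the median number of Chrng counts for 100 Chrne counts was 2.95 (0.203 to 4.55) in the tibialis anterior, 4.05 (0.611 to 14.8) in the gastrocnemius, 5.08 (2.64 to 17.5) in the diaphragm and 39.1 (13.3 to 59.5) in the soleus. At 27 months it was 147 (53.9 to 205), 90.7 (51.4 to 179), 65.3 (20.4 to 221) and 280 (79.6 to 423). Every library of 27 months had a higher ratio than every library of 6 months in all 4 muscles.

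The ratio rose 57.8-fold in the tibialis anterior, 26.5-fold in the gastrocnemius, 11-fold in the diaphragm and 7.38-fold in the soleus. On the log2 scale the change was 5.85 (SE 0.38, n = 12 and 12), 4.73 (SE 0.44, n = 10 and 11), 3.46 (SE 0.41, n = 12 and 12) and 2.88 (SE 0.25, n = 12 and 12). In 2-sided permutation tests with 100000 resamples the adjusted p over the 4 muscles was 2.67e-05, with 4e-05 in the gastrocnemius, and a raw p of 2e-05 is the smallest these resamples can give. At 18 months the median had reached 30.4 Chrng counts for 100 Chrne counts in the tibialis anterior and 25.8 in the gastrocnemius, while it was 12.6 in the diaphragm. In the soleus the ratio at 18 months, 51.2, lay between those at 6 and 12 months, 39.1 and 61.5, and the later climb came at 21 months with 97.8, 24 months with 114 and 27 months.

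**Figure D3:**
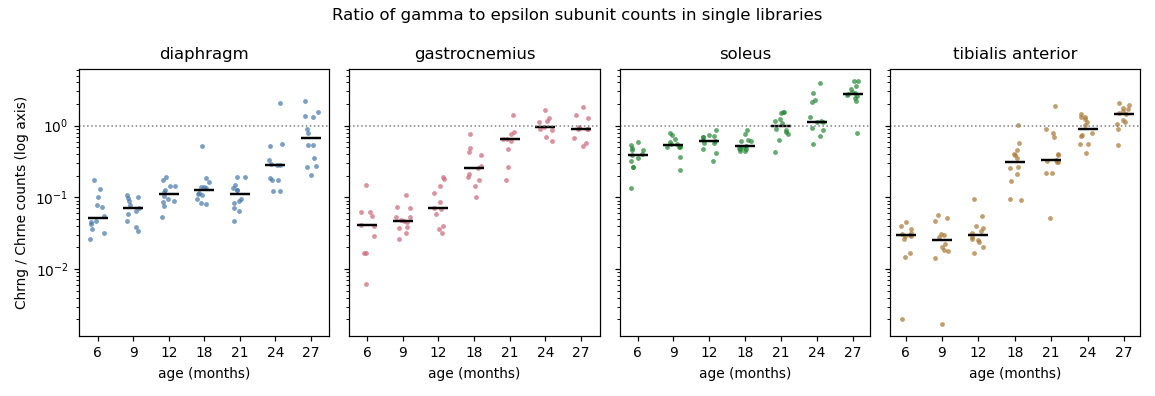
Ratio of Chrng to Chrne counts (0.5 added to each, log axis) in single libraries by age in months, with the group median as a bar and a dotted line at a ratio of 1. The 27-month libraries lie above all 6-month libraries in each panel, and the soleus starts nearest to 1.

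The ages at which the subunits moved differed between muscles. At 9 and 12 months no member was called against 6 months in any muscle with limma-voom. The share of all genes called higher was 0.00851% at 9 months and 0.145% at 12 months in the tibialis anterior, 0.0493% and 0.23% in the soleus, 0.101% and 0.489% in the gastrocnemius, and 0.0748% and 0.307% in the diaphragm. Among the 40 tests at these 2 ages, 3 had an unadjusted p under 0.05 and 2, the soleus changes of Chrnd given above, an adjusted p under 0.05. edgeR and DESeq2 each called 1 of them. At 18 months 3 members, Chrna1, Chrnd and Chrng, were called in the gastrocnemius and in the tibialis anterior, beside 3.63% and 4.11% of genes called higher, and Chrnd in the diaphragm and the soleus, beside 1.62% and 1.66%. DESeq2 and edgeR called Chrng as well at 18 months, with log2 changes of 1.26 (adjusted p = 0.0036) and 1.24 (adjusted p = 0.0113) in the diaphragm and of 0.71 by both tools (adjusted p = 0.0366 and 0.0493) in the soleus, so that 2 members were called there. At 21 months the same 3 were called in the gastrocnemius (4.27% of genes) and tibialis anterior (5.50%), Chrnd and Chrng in the soleus (1.41%) and Chrnd in the diaphragm (1.12%). With the Bonferroni adjustment the calls of Chrng at 18 months were lost in both fast muscles and that of Chrna1 in the tibialis anterior (adjusted p = 0.194), which left 1 member there. At 21 months Chrng was then lost in the tibialis anterior and the soleus, and Chrnd in the diaphragm (adjusted p = 0.178), which left 0 members in the diaphragm.

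At 24 months Chrne joined these 3 in the gastrocnemius (11.4% of genes), all 5 members were called in the tibialis anterior (10.9%), Chrna1, Chrnd and Chrng in the soleus (3.87%), and Chrnd and Chrng in the diaphragm (2.19%). The call of Chrne in the tibialis anterior at 24 months, a log2 change of 0.67 (SE 0.15, adjusted p = 9.08e-05), rested on 1 library. Without replicate 6 of that group the change was 0.54 (adjusted p = 0.000591), under 1.5-fold. The call of Chrng in the diaphragm at 24 months was lost when all 4 muscles were fitted together (adjusted p = 0.054). With the Bonferroni adjustment that call was lost as well, as were those of Chrna1 in the soleus and of Chrne in the tibialis anterior (adjusted p = 0.258).

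The steps between successive ages show between which ages the levels differed. Steps out of 12 months in the diaphragm, soleus and tibialis anterior cannot be told apart from the change of series given above. From 12 to 18 months Chrna1 rose by a log2 change of 1.71 (SE 0.34, adjusted p = 6.47e-05) in the tibialis anterior and 1.83 (SE 0.28, adjusted p = 3.11e-05) in the gastrocnemius. Chrnd rose at the same step by 1.51 (SE 0.29) and 0.93 (SE 0.17) in these muscles and by 0.64 (SE 0.17, adjusted p = 0.0053) in the diaphragm. Chrng rose by 3.02 (SE 1.04, adjusted p = 0.0187) in the tibialis anterior and 1.79 (SE 0.49, adjusted p = 0.0367) in the gastrocnemius. The share of all genes called higher at this step was 2.44% in the tibialis anterior, 1.28% in the soleus, 0.657% in the gastrocnemius and 0.607% in the diaphragm. These 2 Chrng steps and the diaphragm step of Chrnd did not pass with the Bonferroni adjustment.

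From 18 to 21 months Chrnd rose by 0.73 (SE 0.23, adjusted p = 0.013) in the tibialis anterior and 0.84 (SE 0.17, adjusted p = 0.00645) in the gastrocnemius, Chrna1 by 0.96 (SE 0.29, adjusted p = 0.00876) in the tibialis anterior, and Chrng by 1.33 (SE 0.32, adjusted p = 0.0263) in the gastrocnemius. With limma-voom no member was called there in the soleus, where 2 had an unadjusted p under 0.05, or in the diaphragm, where 0 had, and the share of genes called higher was 1.27% in the tibialis anterior, 0.641% in the soleus, 0.11% in the gastrocnemius and 0.291% in the diaphragm. These 4 calls did not pass with the Bonferroni adjustment. With total-count scaling that of Chrng in the gastrocnemius was lost as well (adjusted p = 0.0578). edgeR called 3 further changes at this step, Chrng in the tibialis anterior (1.41, adjusted p = 0.00358) and the soleus (0.90, adjusted p = 0.00933) and Chrna1 in the gastrocnemius (0.96, adjusted p = 0.0455). Both fast muscles showed a further step from 21 to 24 months, where 4.22% of genes were called higher in the gastrocnemius, 2.8% in the tibialis anterior, 0.353% in the soleus and 0% in the diaphragm. Chrna1 rose by 1.74 (SE 0.30) in the tibialis anterior and 1.79 (SE 0.28) in the gastrocnemius, Chrnd by 1.43 (SE 0.22) and 1.06 (SE 0.17), and Chrng by 1.67 (SE 0.35) and 1.35 (SE 0.27) on the log2 scale. The Chrng call of this step in the tibialis anterior did not pass with the Bonferroni adjustment (adjusted p = 0.0946). In the last step, from 24 to 27 months, no member was called in the gastrocnemius with limma-voom or edgeR, and 0 had an unadjusted p under 0.05. There 0.548% of genes were called higher, and the log2 changes of the members lay between -0.05 (Chrnd, SE 0.17) and 0.23 (Chrne, SE 0.13).

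In the other muscles the last step was large. Chrna1, Chrnd, Chrne and Chrng rose in the tibialis anterior by 1.12 (SE 0.32), 0.97 (SE 0.23), 0.65 (SE 0.13) and 1.21 (SE 0.27), where 4.17% of genes were called higher. In limma-voom the soleus had its only called steps here, with Chrna1 up by 1.47 (SE 0.26, adjusted p = 5.94e-06), Chrng by 1.66 (SE 0.23, adjusted p = 2.34e-08) and Chrne by 0.62 (SE 0.09, adjusted p = 1.47e-07), beside 2.97% of genes. The diaphragm rose in Chrna1 by 1.19 (SE 0.20, adjusted p = 1.9e-06), in Chrnd by 0.97 (SE 0.15, adjusted p = 5.91e-07) and in Chrng by 1.61 (SE 0.31, adjusted p = 1.9e-05), beside 0.872%. All 4 tibialis anterior calls of the last step were lost with the Bonferroni adjustment. With edgeR the soleus had 5 called steps in place of 3, since Chrng from 18 to 21 months and Chrna1 and Chrng from 21 to 24 months were called too, and Chrne in the last step was under 1.5-fold at 0.57.

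The course over the 7 ages was described by null, linear and logistic models of log2 CPM. By this rule 13 of the 20 pairs of subunit and muscle were late rises, with a fitted inflection after 21 months. Inflections were searched only up to 27 months. This limit was reached by Chrna1 in the diaphragm, soleus and tibialis anterior, Chrnb1 in the soleus, Chrnd in the tibialis anterior and Chrng in the diaphragm. Their inflection is therefore not placed, and the late class does not date the start of a rise. Chrna1 and Chrnd in the tibialis anterior were already called at 18 months. A linear rise described 4 pairs, Chrnb1 and Chrnd in the diaphragm, Chrnd in the soleus and Chrng in the gastrocnemius. The other rises were Chrna1 and Chrnb1 in the gastrocnemius, with inflections at 19.5 and 21 months. No trend was found for Chrne in the diaphragm. With total-count scaling Chrnb1 in the gastrocnemius moved into the late class.

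The muscles differed in their levels before any change with age. At 6 months 16 of the 30 differences between muscle pairs over the 5 members were called in a fit over all libraries and 12784 genes. This fit treats libraries of different muscles as independent. The labels do not tie libraries to an animal, but the deviations of same-numbered libraries of 2 muscles were correlated above 0.1 in 260 of 468 pairs, so some may share an animal. The share of all genes called was 23.9%, 37.3% and 35.1% for the diaphragm against the soleus, gastrocnemius and tibialis anterior, 45.4% and 42.9% for the soleus against the gastrocnemius and tibialis anterior, and 17.3% between these last muscles. Chrna1, Chrnd and Chrng had their highest level in the soleus. Chrna1 was higher in the soleus than in the tibialis anterior by a log2 difference of 2.19 (SE 0.29, adjusted p = 3.21e-12), Chrnd by 2.62 (SE 0.22, adjusted p = 1.57e-25) and Chrng by 3.56 (SE 0.93, adjusted p = 0.000247). For Chrnd the order soleus, diaphragm, gastrocnemius, tibialis anterior had a called difference at each step, although the last of them was not called with total-count scaling (adjusted p = 0.0542). With the Bonferroni adjustment the steps from the diaphragm to the gastrocnemius and from there to the tibialis anterior were lost. All called differences of Chrng at 6 months were then lost too. For Chrna1 the gastrocnemius and tibialis anterior did not differ beyond their spread, with a log2 difference of 0.43 (SE 0.37, adjusted p = 0.336), and for Chrng the diaphragm, gastrocnemius and tibialis anterior did not. Chrne and Chrnb1 each had 1 called difference at 6 months, the soleus under the gastrocnemius by -0.65 (SE 0.14) for Chrne and the gastrocnemius over the diaphragm by 0.74 (SE 0.08) for Chrnb1. Both were lost with total-count scaling.

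At 27 months 21 of the 30 differences were called, and the order had changed. The share of all genes called, for the pairs in the same order, was 27.9%, 32.3% and 27.4% against the diaphragm, 34% and 31.7% against the soleus, and 10.4% between the gastrocnemius and tibialis anterior. The tibialis anterior now had the highest Chrna1 level, above the gastrocnemius by 0.98 (SE 0.27, adjusted p = 0.00122), above the soleus by 0.63 (SE 0.26, adjusted p = 0.0273) and above the diaphragm by 3.29 (SE 0.26, adjusted p = 2.59e-28). Chrnd was also highest there, by 0.66 (SE 0.17, adjusted p = 0.000183) over the soleus. The margins over the soleus were not called with total-count scaling, at 0.39 for Chrna1 and 0.41 for Chrnd. With the Bonferroni adjustment these margins were lost too, as was that of Chrna1 over the gastrocnemius. For Chrng the tibialis anterior and soleus did not differ beyond their spread, with a log2 difference of -0.11 (SE 0.20, adjusted p = 0.628). The diaphragm was lowest in Chrna1, Chrnb1, Chrnd and Chrng, although its gap to the soleus in Chrnb1, 0.52 (SE 0.07), was under 1.5-fold. Its gap to the gastrocnemius in Chrnd, 0.66 (SE 0.17), was lost with the Bonferroni adjustment and, at 0.51, with total-count scaling. In Chrne the diaphragm lay 0.25 (SE 0.11, adjusted p = 0.0417) below the soleus.

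Whether the muscles changed by unequal amounts from 6 to 27 months was tested as an interaction. It was called for 14 of the 30 combinations. The share of all genes called was 11.9%, 21.6% and 20.3% for the diaphragm against the soleus, gastrocnemius and tibialis anterior, 14.5% and 15.8% for the soleus against the gastrocnemius and tibialis anterior, and 7.32% between these last muscles. Chrnd changed more in the tibialis anterior than in each other muscle, by 3.28 (SE 0.28) over the soleus, 2.96 (SE 0.29) over the diaphragm and 1.49 (SE 0.31) over the gastrocnemius on the log2 scale. For Chrna1 the tibialis anterior and gastrocnemius exceeded the diaphragm by 4.02 (SE 0.41) and 3.47 (SE 0.44) and the soleus by 2.82 (SE 0.40) and 2.27 (SE 0.43), and the soleus exceeded the diaphragm by 1.20 (SE 0.38), which did not pass with the Bonferroni adjustment. The 2 fast muscles differed from each other in the Chrna1 change by 0.55 (SE 0.45, adjusted p = 0.406), which was within the error. Chrnb1 had no called interaction, with differences between 0.04 and 0.48, and Chrne had 2, of the tibialis anterior and the gastrocnemius against the diaphragm, the latter lost with the Bonferroni adjustment. With total-count scaling further interactions were called, of which 1 was Chrnb1 for the tibialis anterior against the diaphragm (0.81, adjusted p = 2.44e-09). Those of Chrne were the soleus against the diaphragm (0.65, adjusted p = 0.00531) and the tibialis anterior against the soleus (0.65, adjusted p = 0.0032). Chrng for soleus minus gastrocnemius was called too (-2.11, adjusted p = 0.0458). For Chrng the wide errors at 6 months left 2 called interactions, of the tibialis anterior with the soleus (3.45, SE 0.95) and with the diaphragm (3.43, SE 1.11), and neither passed with the Bonferroni adjustment. The interaction of Chrng for soleus minus gastrocnemius was called with the replicate number as a block (-1.99, adjusted p = 0.0434).

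How widely libraries of 1 muscle and age spread once the rise had begun differed between genes and muscles. For Chrnd in the soleus the highest level was 1.53 times the lowest at 6 months and 1.85 times at 27 months. For Chrng in the gastrocnemius it was 43.6 times at 6 months, where counts were few, and 5.38 times at 27 months. The highest Chrna1 level was 1.74 times the lowest in the tibialis anterior at 6 months and 28.6 times at 21 months. The highest library of 21 months was replicate 7, at 463 CPM with the next at 168 CPM, and this library was also the highest of its group in the other 4 members. Without it the log2 change of Chrna1 from 6 to 21 months was 2.27 instead of 2.49, and the 3 calls at this age stayed. Replicate 7 of the gastrocnemius at 24 months was likewise the highest of its group in all 5 members, and replicate 9 of the tibialis anterior at 27 months was the lowest of its group in all 5.

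In the soleus at 24 months 4 of the 12 libraries stood apart. They had 299, 313, 367 and 434 CPM of Chrna1, while the other 8 lay between 30.6 and 125 CPM. The same 4 libraries were the highest of the group in Chrng, at 21.1 to 44.4 CPM against at most 10.6 CPM in the others, and in Chrnb1, at 75.8 to 84.2 CPM against at most 67.6 CPM. They were not the highest 4 in Chrnd or Chrne. Replicate 3, which is not among them, had 108 CPM of Chrnd, above all of them but replicate 5 at 120 CPM, and 9.22 CPM of Chrne, above replicate 11 at 9.18 CPM. Their Chrna1 levels fell within the range of the soleus at 27 months. These libraries were singled out after their values were seen, and the pattern was not tested.

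Within the age of 27 months the members were compared across libraries in each muscle, which gave 40 relations. Pearson's r had an adjusted p under 0.05 in 28 of them, and 26 of these also in Spearman's rho. Chrna1 and Chrng were closely related in every muscle, with r = 0.966 and rho = 0.944 in the tibialis anterior (permutation p = 1e-05, the smallest that 100000 resamples can give), 0.951 and 0.909 in the gastrocnemius, 0.943 and 0.846 in the soleus, and 0.925 and 0.958 in the diaphragm. The adjusted p was at most 0.00024 for r and 0.00267 for rho. Without the 2 libraries farthest from the median of Chrna1 these r values were 0.945, 0.836, 0.778 and 0.908. The members share each library's depth and scaling.

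All 10 relations passed in the tibialis anterior and 8 of 10 in the gastrocnemius. In the diaphragm 6 passed, which were those without Chrne, whose r with the other members lay between 0.12 and 0.35. In the soleus 4 passed and Chrnd stood apart from the rest, with r between 0.23 and 0.43 to the other members and adjusted p from 0.204 to 0.538 in permutation tests. There Chrne passed by rho but not by r with Chrna1 (rho 0.692, permutation adjusted p = 0.0235, r = 0.461). The same held for Chrne with Chrng (rho 0.720, permutation adjusted p = 0.0167, r = 0.577). The soleus library lowest in Chrna1 at 27 months, replicate 9 with 62.9 CPM, had 118 CPM of Chrnd, above the group median of 117 CPM. In the gastrocnemius the relations of Chrne with Chrna1 and Chrnb1 passed by r (0.683 and 0.682, adjusted p = 0.0266 and 0.0292 in permutation tests) but not by rho (0.582 and 0.555, adjusted p = 0.0901 and 0.109), and r fell to 0.435 and 0.401 without the 2 farthest libraries.

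**Figure D4:**
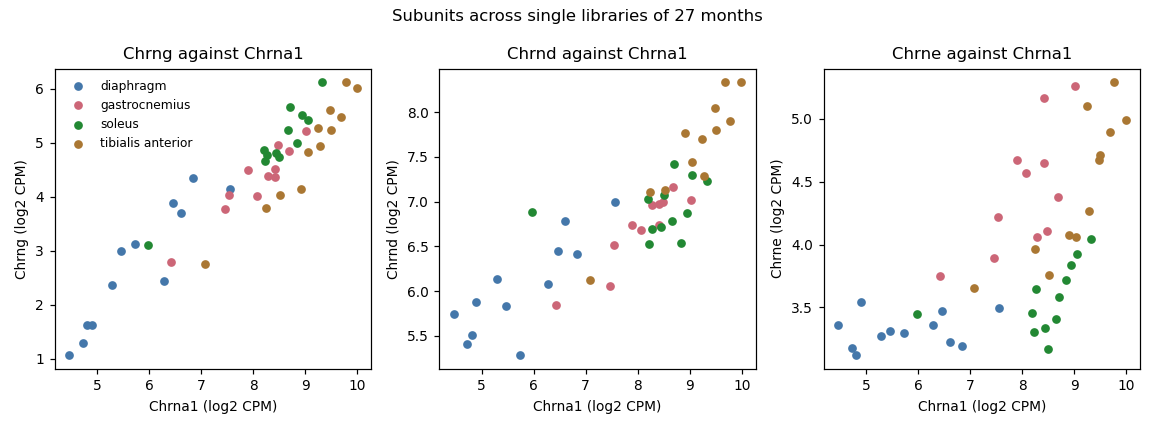
Chrng, Chrnd and Chrne (y axes, log2 CPM) against Chrna1 (x axis, log2 CPM) in the single libraries of 27 months, with 1 colour for each muscle. Chrng follows Chrna1 in all 4 muscles, Chrnd does so less in the soleus, and Chrne is flat in the diaphragm.

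The pattern over the 28 groups of muscle and age was set beside that of all 12784 genes tested, by Pearson's r of group mean log2 CPM, as a description across groups that share libraries between genes. Chrna1, Chrnd and Chrng formed a set with r from 0.928 to 0.962 between them, and Chrnb1 and Chrne were nearest to each other with r = 0.851. Chrnd and Chrne had r = 0.422. The 3 genes nearest to Chrna1 were Spg21 (0.975), Rab31, a small GTPase of vesicle traffic (0.968), and Ncam1, the neural cell adhesion molecule (0.968). Nearest to Chrnb1 were Cacnb1, the beta subunit of the muscle calcium channel (0.984), H6pd (0.978) and Hdac4, a histone deacetylase (0.968).

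The 3 genes nearest to Chrnd were its neighbour on the chromosome Chrng (0.962), the transcription factor Stat3 (0.961) and B2m, the light chain of class I histocompatibility molecules (0.960). Those nearest to Chrne were Sil1 (0.930), a nucleotide exchange factor of the endoplasmic reticulum, Sytl1 (0.921) and RT1-CE10 (0.921), a class I histocompatibility gene with near-identical copies whose reads may be shared between them. Nearest to Chrng were Chrnd (0.962), Chrna1 (0.956) and Spg21 (0.950).

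The genes around the receptor moved unevenly. The share of all genes called lower at 27 months, for comparison with the lists, was 10.4% in the tibialis anterior, 5.78% in the soleus, 7.76% in the gastrocnemius and 4.25% in the diaphragm, beside the shares called higher given at the start. Of 10 genes for the clustering of receptors, 1 was called higher at 27 months in the diaphragm and 3 in each limb muscle, with none lower. They were Musk, the receptor kinase that starts clustering, Pak1, a kinase downstream of it, and Lrp4, the receptor for nerve agrin. Musk rose by a log2 change of 3.82 (SE 0.30) in the tibialis anterior, 3.25 (SE 0.22) in the gastrocnemius, 1.73 (SE 0.17) in the soleus and 0.84 (SE 0.13, adjusted p = 3.21e-07) in the diaphragm. Lrp4 rose by 1.03 (SE 0.09), 0.67 (SE 0.07) and 0.80 (SE 0.09) in these limb muscles, and was at 0.17 (SE 0.06) in the diaphragm. Pak1 rose by 1.48 (SE 0.17), 0.66 (SE 0.14) and 1.09 (SE 0.14), and was at 0.44 (SE 0.08) in the diaphragm. Rapsn, Dok7 and Agrn, which encode rapsyn, a Musk adaptor and agrin, were not called in any muscle, with log2 changes between -0.20 and 0.42.

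**Figure D5:**
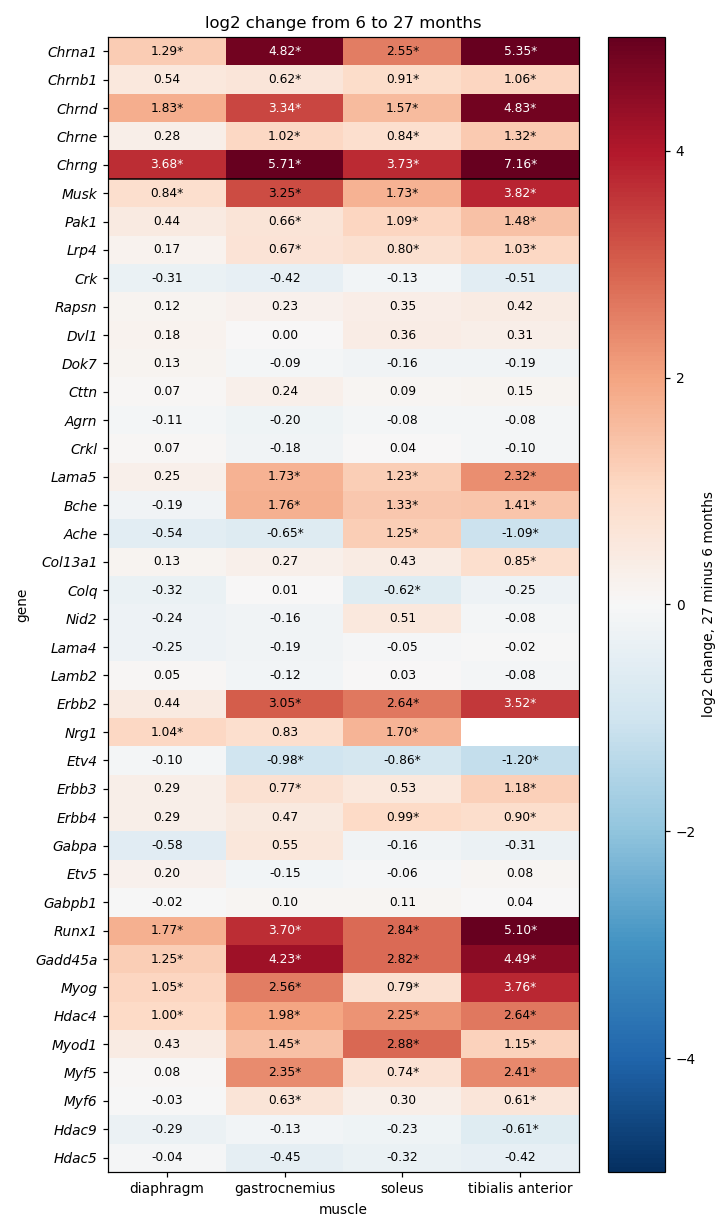
Log2 change from 6 to 27 months of the 5 subunits (above the line) and of the genes tested in the 4 lists on clustering, synaptic matrix, neuregulin and activity-dependent transcription, by muscle, with the value in each cell, an asterisk for a called change and an empty cell where the gene was not tested. Musk, Erbb2, Runx1, Gadd45a and Myog are strongly coloured in the fast muscles, as are Chrna1, Chrnd and Chrng. Ache turns from lower to higher between the fast muscles and the soleus.

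Of 8 genes tested for the synaptic matrix and transmitter breakdown, none was called in the diaphragm, 2 were higher and 1 lower in the gastrocnemius, and 3 higher and 1 lower in each of the other limb muscles. Acetylcholinesterase, Ache, the enzyme that clears the transmitter, fell by 1.09 (SE 0.15) in the tibialis anterior and by 0.65 (SE 0.10) in the gastrocnemius on the log2 scale, and rose by 1.25 (SE 0.14, adjusted p = 1.01e-12) in the soleus. Its collagen tail gene Colq fell by 0.62 (SE 0.14, adjusted p = 0.000118) in the soleus. Lama5, a laminin chain of the basal lamina, rose by 2.32 (SE 0.15), 1.73 (SE 0.15) and 1.23 (SE 0.11) in that order in the tibialis anterior, the gastrocnemius and the soleus, and Bche, the related butyrylcholinesterase, rose by 1.41 (SE 0.19), 1.76 (SE 0.20) and 1.33 (SE 0.16).

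Of 8 genes for neuregulin signalling and synaptic transcription, 1 was higher in the diaphragm, 2 in the gastrocnemius and 3 in the soleus and the tibialis anterior, where 7 were tested. Erbb2, a neuregulin co-receptor, rose by 3.52 (SE 0.36) in the tibialis anterior, 3.05 (SE 0.25) in the gastrocnemius and 2.64 (SE 0.28) in the soleus. Etv4, a factor of the family that binds Ets sites, was the gene called lower, at -1.20 (SE 0.12), -0.98 (SE 0.12) and -0.86 (SE 0.14). Nrg1, a neuregulin, rose by 1.04 (SE 0.25) in the diaphragm and 1.70 (SE 0.42) in the soleus from levels under 1 CPM.

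Of 9 genes tested for activity-dependent transcription, 7 were called higher in each of the fast muscles, 6 in the soleus and 4 in the diaphragm. Runx1, a factor known to be induced in denervated muscle, rose by 5.10 (SE 0.28) in the tibialis anterior and 1.77 (SE 0.26) in the diaphragm. Gadd45a, a stress gene of denervated fibres, rose by 4.49 (SE 0.27) and 1.25 (SE 0.22), and Myog, the myogenic factor that binds E-boxes, by 3.76 (SE 0.23) and 1.05 (SE 0.20). In the gastrocnemius and soleus Runx1 rose by 3.70 (SE 0.23) and 2.84 (SE 0.26), Gadd45a by 4.23 (SE 0.27) and 2.82 (SE 0.26), and Myog by 2.56 (SE 0.18) and 0.79 (SE 0.11). Hdac9 was the gene called lower, at -0.61 (SE 0.09) in the tibialis anterior. Of 11 neuronal nicotinic subunits only Chrna4 and Chrnb2 had enough counts for a test, and each was called higher at 27 months wherever it was tested, at median levels of at most 2.92 CPM.

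Other cell types moved with age in the same libraries. Of 5 macrophage markers, 5 were called higher at 27 months in the gastrocnemius and in the tibialis anterior, 1 in the soleus and 0 in the diaphragm, and their summed level went from 34.1 to 54.0 CPM at 6 months to 71.7 to 142 CPM at 27 months in the tibialis anterior. Of 5 adipocyte markers 4 were called higher in each limb muscle and 0 in the diaphragm. Of 8 Schwann cell markers, 4 were higher in the tibialis anterior, 2 in the soleus, and 3 higher and 2 lower in the gastrocnemius, and their summed median was 65.3 CPM at 6 months and 80.1 CPM at 27 months in the tibialis anterior. Of 5 satellite cell markers 2 were higher in each limb muscle and 1 in the diaphragm. Myf5 is among these 5 and was also counted under activity-dependent transcription above. Its tibialis anterior median went from 2.72 CPM at 6 months to 18.2 CPM at 27 months. The soleus medians of Myf5 and Chrdl2 went from 12.9 to 23.3 and from 4.17 to 7.64 CPM. Those of Pax7, Calcr and Vcam1 went from 5.98 to 6.50, 2.12 to 2.07 and 18.2 to 17.7 CPM. The median log2 change of the 5 markers there was -0.05. T cell markers reached at most 2.72 CPM in sum at 6 and 27 months, with 2 of 3 tested called higher in the diaphragm and the 1 tested called higher in each limb muscle, and none of 4 red cell genes was called. The summed level of 7 muscle fibre genes had a median of 182005 CPM at 6 months and 94266 CPM at 27 months in the tibialis anterior, with ranges that did not overlap. This sum went from 164192 to 105105 CPM in the gastrocnemius, where the ranges did not overlap either, from 101853 to 77126 CPM in the soleus and from 73245 to 85991 CPM in the diaphragm, where they did. Of the 7 genes, 3 were called lower in the tibialis anterior and 2 in the gastrocnemius, and 2 were called higher in the soleus and 1 in the diaphragm. The sum leans on its most abundant genes and is not a measure of fibre content alone. In the tibialis anterior the median of the fast myosin Myh4 went from 87432 to 28896 CPM, while that of Mb went from 7534 to 8494 CPM. In the soleus that of the slow myosin Myh7 went from 47514 to 30539 CPM. The part of these shifts in the subunit changes was not tested.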

How the data were processed

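RNA from 4 muscles of male rats was sequenced by the authors with a strand-specific, rRNA-depleted paired-end library kit, aligned in their ArrayStudio pipeline (version not given in the sources used here) to the rat "B6.0" reference with a RefSeq-based in-house gene model, and deposited as raw counts per gene, 1 file for each library. Lines of 1 symbol were summed. Groups came from the labels for muscle and age. For each muscle the 7 ages were fitted in limma-voom (limma 3.58.1, edgeR 4.0.16, R 4.3.3) after filterByExpr (minimum count 10, minimum total 15) with TMM scaling, each age was set against 6 months and against the age before it, and p-values were adjusted by Benjamini-Hochberg over all genes. Muscles were compared in 1 fit over all libraries. Levels are CPM with TMM scaling of that fit, with 0.5 added to counts for logarithms. Trends were chosen among null, linear and logistic models by the Bayesian information criterion. Ratios and relations used permutation tests in scipy 1.17.1 with 100000 resamples. Beyond the 5 members, the text names the 3 genes nearest to each in pattern, and from each list the 3 genes with the largest mean absolute change at 27 months, and those called lower. Rapsn, Dok7 and Agrn were named after their values were seen. The members and lists were chosen with earlier results of these data known. Alternatives included DESeq2 1.42.0, edgeR's quasi-likelihood test, other scalings and thresholds, and a replicate block. The fits were tested on simulated data. Transcript lengths and protein sequences were not used here.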

Additional observations from a re-analysis of the deposited data

Results flagged for a closer look

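Groups small enough for a test of single libraries were those of the gastrocnemius at 6, 21 and 24 months. In 4 of these 15 groups of 1 subunit and age, the gap of the highest library to the next exceeded Dixon's 95% critical value. Chance gives this in about 1 of 20 independent groups with normally distributed levels. The levels tested were untransformed CPM and the groups share libraries, so that rate does not apply here. Replicate 5 of 6 months had 18.9 CPM of Chrna1, with the next library at 11.2 CPM, and 1.77 CPM of Chrng, with the next at 0.696 CPM. Replicate 5 of 21 months had 115 CPM of Chrnb1, with the next at 85.6 CPM. Replicate 7 of 24 months had 51.1 CPM of Chrng, with the next at 28.7 CPM.

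The change from 6 to 27 months differed between muscles by an interaction test in limma-voom for 14 combinations of subunit and muscle pair, given as log2 differences. For Chrna1 the gastrocnemius exceeded the diaphragm by 3.47, the soleus the diaphragm by 1.20, the tibialis anterior the diaphragm by 4.02 and the tibialis anterior the soleus by 2.82, and the soleus minus the gastrocnemius was -2.27. For Chrnd the gastrocnemius exceeded the diaphragm by 1.46, and the tibialis anterior exceeded the diaphragm by 2.96, the gastrocnemius by 1.49 and the soleus by 3.28, while the soleus minus the gastrocnemius was -1.79. Chrne changed more than in the diaphragm by 0.69 in the gastrocnemius and by 0.99 in the tibialis anterior. Chrng changed more in the tibialis anterior than in the diaphragm by 3.43 and than in the soleus by 3.45. The part of the cell type markers and of collection day in these differences was not tested.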

How the results depend on the processing

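The changes from 6 to 27 months kept their direction under every alternative tried. With a 2-fold limit Chrnb1 in the gastrocnemius (0.62) and soleus (0.91) and Chrne in the soleus (0.84) were no longer called, which left 3 subunits called in the soleus. The Bonferroni adjustment left 9 differences between muscles at 6 months, 5 called steps in the gastrocnemius and 4 in the tibialis anterior, and edgeR gave 5 called steps in the soleus. Changes of sign were found for values that were not called. Some of these had passed the adjusted p in limma-voom and were uncalled because they were under 1.5-fold. For Chrnb1 they were tibialis anterior minus soleus at 6 months (0.30, adjusted p = 9.89e-05) and soleus minus gastrocnemius at 27 months (-0.25, adjusted p = 0.00125). For Chrne they were gastrocnemius minus diaphragm (0.41, adjusted p = 0.00393) and tibialis anterior minus soleus (0.40, adjusted p = 0.00435) at 6 months. Chrna1 in the diaphragm at 21 months was -0.0105 with the library total as a covariate, chosen after seeing the data, and -0.00377 without the third-series libraries. Chrna1 in the soleus at 18 months was 0.018 in both DESeq2 and edgeR, and in the gastrocnemius from 24 to 27 months -0.00782 in edgeR. With total-count scaling, which shifted the all-gene median at 27 months by 0.32 in the tibialis anterior, 0.15 in the soleus, 0.28 in the gastrocnemius and 0.04 in the diaphragm, Chrnb1 was 0.020 for soleus minus gastrocnemius at 27 months and -0.11 for tibialis anterior minus soleus at 6 months. Chrne was then 0.086 in the gastrocnemius at 18 months, and at 6 months -0.035 for gastrocnemius minus diaphragm, -0.28 for tibialis anterior minus diaphragm and -0.0088 for tibialis anterior minus soleus. The interaction of Chrng for soleus minus diaphragm was 0.0033 with RLE size factors, 0.14 with quality weights and 0.14 with total-count scaling. The cause was not tested.

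Same-numbered libraries were correlated above 0.1 in 69 of 273 pairs between ages. Between muscles 260 of 468 pairs were, and 166 correlated best with their own number, a hint from the data that some share animals, but every pair passed 0.1 in only 3 of 42 comparisons, so the numbers were not taken as a pairing. With the replicate block Chrna1 in the gastrocnemius from 24 to 27 months was -0.018, Chrng was also called in the diaphragm at 18 months (1.38), for the tibialis anterior from 18 to 21 months (1.02) and for the interaction of soleus minus gastrocnemius (-1.987), and no other call changed. Low Chrng counts in young fast muscle limit the size of its fold changes.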
